A study of Rattus norvegicus with 12 samples.

Results

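Neuronal pentraxins and neuritin are proteins that neurons release or display at their surface, and they were followed here in the forebrain of rats after exposure to an unfamiliar environment. Of the 4 genes chosen by symbol (Nptx1, Nptx2, Nptxr and Nrn1), 3 had a probe set that the platform annotation assigns to that symbol alone, with 4 probe sets among 31042 for transcripts. The annotation used here names no probe set for Nptx2, so Nptx2 was not analysed here. The exposed group was 6 male Long Evans rats that spent 3 hours among objects differing in shape and colour. The control group was 6 rats of the same sex and strain that stayed in a standard laboratory cage. All 12 animals were 6 weeks old and housed singly, and no genotype or drug treatment is given in the labels. Forebrain RNA of each animal was measured on 1 Affymetrix array, and all values are the deposited probe set intensities in arbitrary linear units. The labels give the purpose as finding genes that rise with the exposure, and the design holds the comparison of exposed with control animals.

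Nptx1 and Nptx2 code for secreted pentraxins, and Nptxr for a pentraxin anchored in the membrane. The proteins assemble with each other, bind AMPA-type glutamate receptors and gather them at excitatory synapses, among them those onto parvalbumin interneurons. Nptx2, also called Narp, is known as an immediate early gene, whereas Nptx1 and Nptxr are better known for steady expression in neurons. Nrn1 codes for neuritin (also called CPG15), a small protein held at the surface by a glycosylphosphatidylinositol (GPI) anchor that promotes growth of dendrites and axons and maturation of synapses, and that is known to be induced by activity and by neurotrophins.

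Array medians ran from 235 to 245, and precision is limited by the number of arrays. All 8 measured neuron markers lay above the floor (an intensity of 53.8, to which lower values were raised) on all 12 arrays, as did the 5 measured markers of excitatory neurons of cortex and hippocampus. Exposed animals 3 and 5 resembled the rest of their group least, with a median Pearson correlation of 0.995 each, and the other 10 arrays lay between 0.997 and 0.998 within their groups. Some log2 changes of the members and of Gria1 are also given without 1 of these animals. In whole forebrain, a change in RNA per cell and a change in the number of expressing cells cannot be told apart.

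No measured member passed the test for a change after the exposure. In limma with Benjamini-Hochberg adjustment over all probe sets, 0 of 4 member probe sets were higher and 0 were lower at an adjusted p under 0.05, beside 1.97% of all probe sets that were higher and 0.599% that were lower. At an unadjusted p under 0.05 the count of member probe sets was also 0, beside 13.2% of all probe sets, and with 4 probe sets such counts are near the background. The precision differed among the genes, with a narrow interval for Nrn1 and a wide one for Nptx1. The same animals showed increases of Bdnf, Inhba and other activity-induced genes that code for secreted proteins, given further on.

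Nrn1 was measured by 1 probe set. Its intensity in exposed animals was 4787 at the lowest, 5022 at the median and 5182 at the highest, against 4607, 5030 and 5149 in control animals. The groups overlapped, with 1 of 6 exposed animals above every control animal and 0 below. A full separation, with 6 of 6 exposed animals above every control animal, was seen for 1.98% of all probe sets and for 0 of the member probe sets. Mean intensity was 5018 ± 139 in exposed animals and 4967 ± 203 in control animals (SD, n = 6 each). The log2 change was 0.02 ± 0.03 (SE of the limma fit, adjusted p = 1), with an exact two-sided permutation p of 0.639 over all assignments of 6 of the 12 animals. The 95% interval ran from -0.05 to 0.08 on the log2 scale, or from 0.967-fold to 1.06-fold. With this standard error, a log2 change of 0.12 (1.09-fold) would have passed the threshold. The upper end of the interval lay below that size. Without exposed animal 3 the log2 change of Nrn1 was 0.03 (adjusted p = 0.818 in limma).

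Nptxr was measured by 2 probe sets that differed in signal. The brighter one had intensities of 5066, 5773 and 6685 in exposed animals (lowest, median and highest), against 5513, 5836 and 6047 in control animals. The exposed animals spread to both sides of the controls, with 2 of 6 above every control animal (animals 3 and 4) and 1 below (animal 6). Mean intensity was 5846 ± 528 in exposed animals and 5794 ± 213 in control animals (SD, n = 6 each). The log2 change was 0.01 ± 0.06 (adjusted p = 1 in limma, exact permutation p = 0.868), with a 95% interval from -0.11 to 0.13. Without exposed animal 3 the log2 change was -0.03 (adjusted p = 0.952). Without exposed animal 5 it was 0.015, against 0.0090 with all animals. The dimmer probe set was at the floor on 11 of 12 arrays. Its highest values were 54.6 in exposed animals and 48.0 in control animals, and it gives only a bound on each group and no fold change.

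Nptx1 was measured by 1 probe set. Its intensity was 4940, 8242 and 8540 in exposed animals (lowest, median and highest), against 6539, 7394 and 7678 in control animals. Exposed animals 1 to 4, at 8225 to 8540, lay above every control animal, animal 6 was within the control range at 6982, and animal 5 was below every control animal at 4940. Mean intensity was 7574 ± 1412 in exposed animals and 7312 ± 426 in control animals (SD, n = 6 each). The log2 change was 0.03 ± 0.13 (adjusted p = 1 in limma, exact permutation p = 0.892), with a 95% interval from -0.25 to 0.31, or from 0.840-fold to 1.24-fold. At this standard error only a log2 change of 0.55 or more (1.46-fold) would have passed. Without exposed animal 5 the log2 change was 0.15 ± 0.06 and still did not pass (adjusted p = 0.328, unadjusted p = 0.0360 in limma). Without exposed animals 3 and 5 and control 4 together it was 0.10 (adjusted p = 0.610, unadjusted p = 0.141 in limma). Without exposed animal 3 alone it was -0.01.

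**Figure D1:**
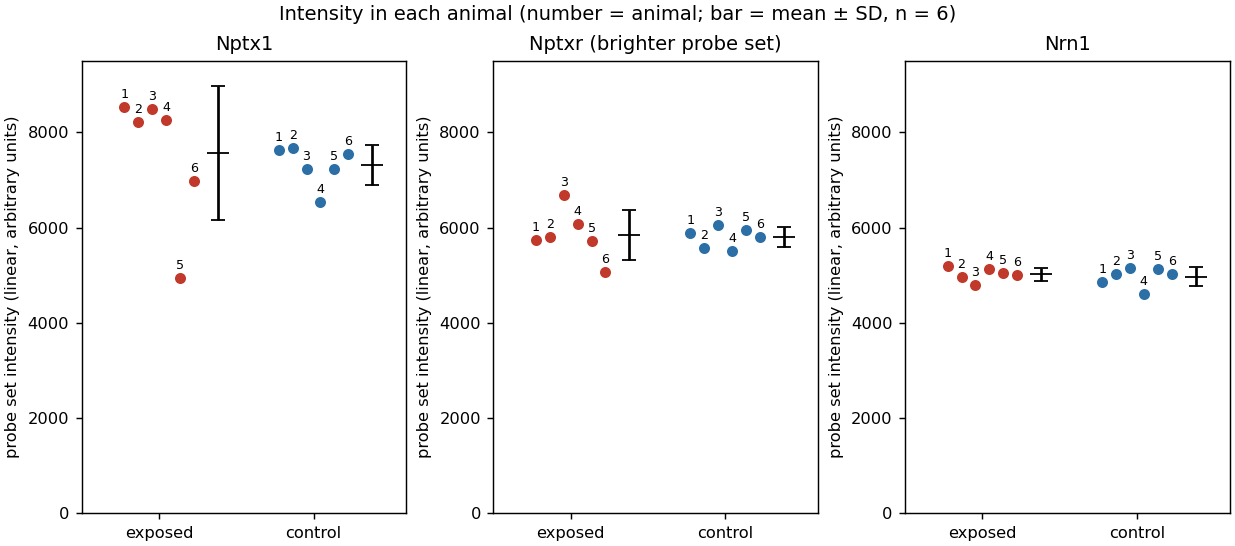
Probe set intensity (linear, arbitrary units) of Nptx1, the brighter Nptxr probe set and Nrn1 in each exposed animal (red, left) and control animal (blue, right), with the animal number beside each point and the group mean ± SD (n = 6). The groups overlap for each gene, and exposed animal 5 stands low for Nptx1, at 4940, but not for Nrn1.

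The spread within the groups differed from gene to gene. On the log2 scale the SD of Nptx1 was 0.31 in exposed animals and 0.09 in control animals, a ratio of 3.57, and that of the brighter Nptxr probe set was 0.13 in exposed animals and 0.05 in control animals, a ratio of 2.45. For Nrn1 the SD was smaller in exposed animals, 0.04, against 0.06 in control animals, a ratio of 0.671. Over the 15521 probe sets of the brighter part of the array the median of this ratio was 1.19, and it was at least as large as that of Nptx1 in 2.80% and at least as large as that of Nptxr in 9.52% of them. Without exposed animal 5 the ratio for Nptx1 was 1.39, beside a median of 1.08, and without control 4 it was 7.27. The ratio for Nrn1 was 0.432 without exposed animal 3 and 1.24 without control 4, so its direction rests on control 4. The difference in spread was described and not tested.

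The labels number the animals of each group 1 to 6. Within animals numbered 1 to 3 the log2 change of Nptx1 was 0.16 (adjusted p = 0.205, unadjusted p = 0.00437 in limma, n = 3 per group). Within those numbered 4 to 6, which hold exposed animal 5, it was -0.11 (adjusted p = 1, unadjusted p = 0.622 in limma). The difference between these changes was -0.27 and did not pass (adjusted p = 1 for the interaction, unadjusted p = 0.243). For the brighter Nptxr probe set the change was 0.06 within animals 1 to 3 and -0.04 within animals 4 to 6, and for Nrn1 it was -0.01 within animals 1 to 3 and 0.04 within animals 4 to 6. Neither gene's difference passed (adjusted p = 1 for both).

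RNA quality was read from array controls of Gapdh and beta-actin as their 3 prime minus their 5 prime signal on the log2 scale, where a larger value stands for more degraded RNA. It was 0.45 ± 0.07 in exposed animals and 0.39 ± 0.05 in control animals (SD, n = 6 each, exact two-sided permutation p = 0.0823), with the highest value, 0.59, in exposed animal 3, which also had the highest Nptxr intensity. With this measure as a covariate the log2 changes were -0.03 for Nptx1, -0.05 for the brighter Nptxr probe set and 0.03 for Nrn1. The adjusted p was 0.954 for Nptxr and the call was unchanged for each. The part of RNA quality in the spread of Nptxr was not tested.

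Because the pentraxins assemble with each other, the balance between Nptx1 and Nptxr within an animal was compared. Nrn1 was also set beside each of them. The log2 ratio of Nptx1 over Nptxr averaged 0.35 ± 0.29 in exposed animals and 0.33 ± 0.09 in control animals (SD, n = 6 each), a difference of 0.02 ± 0.12 (SE). That of Nrn1 over Nptx1 averaged -0.57 ± 0.31 in exposed animals and -0.56 ± 0.07 in control animals, and that of Nrn1 over Nptxr averaged -0.22 ± 0.15 in exposed animals and -0.22 ± 0.04 in control animals. The levels of these ratios depend on the probes and have no meaning between genes, whereas their differences between groups can be read. None of the 3 differences passed, with a smallest exact permutation p of 0.913 (adjusted p = 0.957 over the 3 pairs). Without exposed animal 5 the difference of Nptx1 over Nptxr was 0.13 ± 0.05 with an exact permutation p of 0.0390 (5 exposed against 6 control animals), unadjusted.

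**Figure D2:**
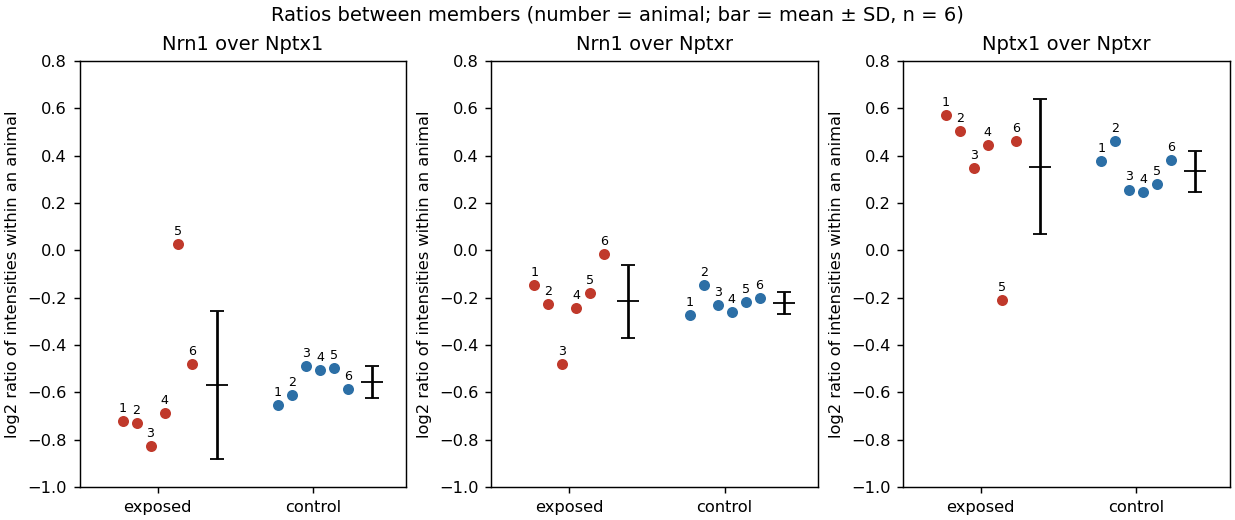
Log2 ratio of intensities between each pair of members within an animal, for exposed (red, left) and control animals (blue, right), with the animal number and the group mean ± SD (n = 6). The group means lie within 0.02 of each other in each panel, and exposed animal 5 departs in both ratios that hold Nptx1.

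Within each group the members showed no relation that passed a test. Over the 6 exposed animals Pearson's r was 0.385 between Nptx1 and Nptxr (Spearman's rho 0.600, exact permutation p = 0.382 and 0.242, adjusted p = 0.573 and 0.725 over 6 relations). Without the 2 animals farthest from the Nptx1 median r was 0.290. Between Nptxr and Nrn1 r was -0.454 in exposed animals and 0.241 without the 2 farthest. Over the 6 control animals the largest was 0.695 between Nptxr and Nrn1 (rho 0.829, exact permutation p = 0.118 and 0.0583, adjusted p = 0.573 and 0.350), and r was 0.588 without the 2 farthest animals. Between Nptx1 and Nrn1 r was 0.617 in control animals and -0.913 without the 2 farthest, so that value rests on those animals.

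The genes most like each member over the 12 animals were sought among 9143 other genes of the brighter part of the array, as a description. For Nptx1 they were Hspa4, an Hsp70-family chaperone (Pearson's r = 0.936), Usp7, a deubiquitinating enzyme (0.930), and Ptp4a2, a tyrosine phosphatase (0.921). In exposed animal 5 these lay 0.48, 0.47 and 0.30 below the median of the other 11 animals on the log2 scale, and Nptx1 lay 0.63 below it. For Nptxr they were Lmtk2, a kinase (0.899), Atp6v0a1, a proton pump subunit (0.880), and Scaf1 (0.844), and for Nrn1 they were Slc30a5, a zinc transporter (0.909), Zc3hc1 (0.902) and Pfkp, a phosphofructokinase (0.898). Within the groups r was 0.843 or higher in exposed animals for each of the 9 genes, and in control animals it was 0.655 or higher except for Scaf1, at -0.065. The genes were picked for the highest r over the same 12 animals, so high values within the groups follow in part from that choice. None of these 9 genes passed the comparison of exposed with control animals (smallest adjusted p = 0.781).

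Neuritin was next set beside other secreted or surface proteins known to be induced by activity. Of 12 measured genes of that list (Nrn1 among them), 6 rose and 0 fell in limma, beside 2.62% of all genes that were higher and 0.844% that were lower with 1 probe set per gene. This list, too, was chosen with earlier results of these data known, so its count of calls depends in part on that choice. These 12 genes had a median log2 change of 0.15, against -0.01 over the 12673 genes above the floor on at least 1 array. Inhba, a subunit of activin, had an intensity of 998 ± 189 in exposed animals and 314 ± 57.4 in control animals (3.18-fold, adjusted p = 0.000201). Bdnf, a neurotrophin, had 1223 ± 214 in exposed animals and 620 ± 87.7 in control animals (1.96-fold, adjusted p = 0.00391). Smaller increases passed for Vgf (1.30-fold, adjusted p = 0.0467) and Scg2 (1.11-fold, adjusted p = 0.000401), both of secretory granules, for Hbegf, a ligand of the EGF receptor (1.16-fold, adjusted p = 0.0114), and for the neuropeptide gene Adcyap1 (1.12-fold, adjusted p = 0.0438). The calls of Vgf and Adcyap1 were each kept in 8 of 26 alternatives, and with 1 animal left out in turn they were lost in 11 and 10 of 12 fits. That of Hbegf was lost with the floor at the 40th percentile (adjusted p = 0.918), with the RNA quality covariate (0.0566) and within animals 1 to 3 (0.186) and 4 to 6 (0.347) alone. Dimmer probe sets of Inhba and Adcyap1 had log2 changes of 0.40 and 0.34 and did not pass (adjusted p = 0.0834 and 0.1475 in limma). A dimmer Bdnf probe set passed (log2 change 0.45, adjusted p = 0.00395 in limma).

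The difference in response between Nrn1 and each of the 11 other genes of that list was tested directly, a comparison chosen after the values were seen. Because Nrn1 itself changed by only 0.02, each difference mostly repeats the change of the other gene on the same arrays. These p-values therefore add no separate support. Timp1 was not among the 6 genes that rose in limma. The log2 change of Nrn1 minus that of the other gene was -1.65 for Inhba, -0.95 for Bdnf and -0.20 for Hbegf (exact permutation p = 0.00216 for each, the smallest it can give, adjusted p = 0.00794 over the 11 genes, 6 of 6 exposed animals below every control in this difference). It was -0.37 for Vgf, -0.37 for Timp1, -0.14 for Adcyap1 and -0.13 for Scg2, each with an exact permutation p of 0.00649 (adjusted p = 0.0102) and with 5, 5, 4 and 4 of 6 exposed animals below every control. Against Sst, Pcdh8, Mmp9 and Plat the difference did not pass (adjusted p from 0.110 to 0.948). Without control 2 or control 4 the unadjusted exact permutation p against Plat was 0.0238 and 0.0498.

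**Figure D3:**
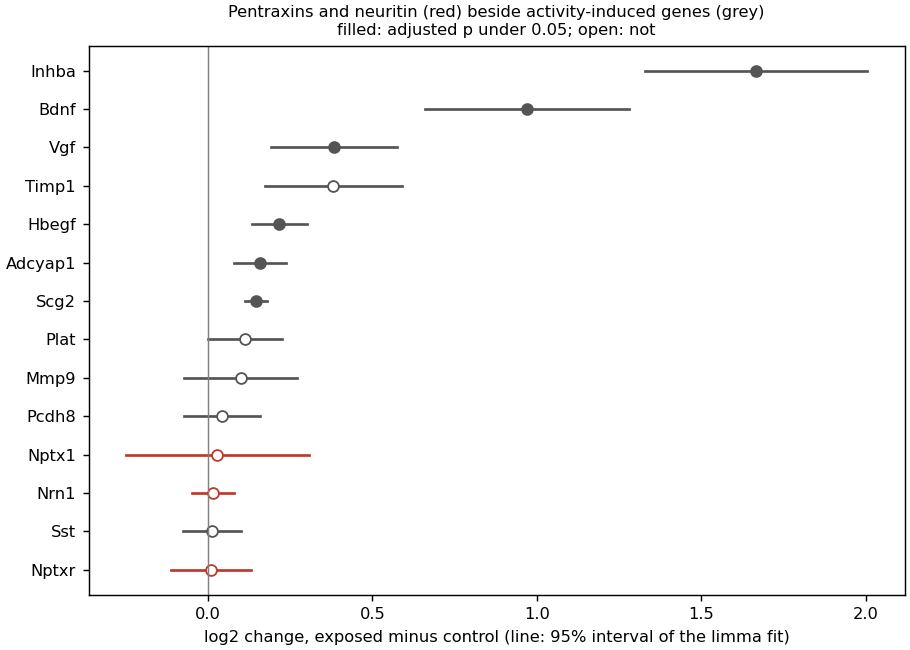
Log2 change (exposed minus control) of Nptx1, Nptxr and Nrn1 (red) and of activity-induced secreted or surface genes (grey), with 95% intervals of the limma fit. Filled points passed at an adjusted p under 0.05, and the interval of Nrn1, from -0.05 to 0.08, ends below that of Scg2, the smallest increase that passed.

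Transcription factors that respond to activity were also examined, several of which are known to act on promoters of activity-induced genes. Of 10 measured genes 5 were higher and 0 lower, beside 2.62% of all genes higher and 0.844% lower. The list was chosen with earlier results of these data known. Its other genes did not pass, and 7 of 10 changes were positive. Egr1 rose 2.41-fold, Fos 6.84-fold, Fosb 5.51-fold, Nr4a1 3.34-fold and Srf, the serum response factor, 1.22-fold (largest adjusted p = 0.00192). A dimmer Fos probe set had a log2 change of -0.025 and did not pass. The 2 dimmer Srf probe sets had 0.15 and 0.21 and did not pass (adjusted p = 0.138 and 0.340 in limma). By its brightest probe set each of the 5 genes that rose had 6 of 6 exposed animals above every control animal. Of all probe sets 1.98% showed this separation.

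The partners of the pentraxins at the synapse gave no call. Of 17 measured AMPA receptor subunits and auxiliary proteins, 0 passed in either direction in limma, and the median log2 change was -0.01. Over all genes 2.62% were higher and 0.844% lower, so a count of 0 in so few genes is near the background. By their brightest probe sets, the log2 changes of the pore-forming subunits Gria1, Gria2, Gria3 and Gria4, named here for their role, were -0.21, -0.07, -0.07 and 0.02 (smallest adjusted p = 0.765). Dimmer probe sets had log2 changes of -0.09 for Gria2 (adjusted p = 0.196 in limma), -0.12 for Gria3, and -0.04 and -0.07 for Gria4, and none passed. The log2 change of Gria1 was -0.01 without exposed animal 5. The smallest p in the list was that of Cacng2, or stargazin, which carries AMPA receptors to the synapse. It had an intensity of 942 ± 141 in exposed animals and 756 ± 37.9 in control animals, with 5 of 6 exposed animals above every control animal (log2 change 0.31, adjusted p = 0.10). Its adjusted p was 0.0442 without exposed animal 5, 0.0458 without exposed animal 6, 0.0351 without the dimmest probe sets and 0.0385 within animals 1 to 3 alone. A dimmer Cacng2 probe set had a log2 change of 0.11. Cacng8, Cacng7 and Frrs1l, also auxiliary proteins, had log2 changes of -0.13, -0.16 and -0.09 (adjusted p from 0.385 to 0.604).

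Of 14 proteins that traffic or anchor AMPA receptors, 0 passed, near the background of all genes, with a median of -0.02. Nsg1, an endosomal protein of neurons, was 2903 ± 158 in exposed animals and 3143 ± 68.4 in control animals, with 6 of 6 exposed animals below every control animal, a separation that 0.725% of all probe sets showed in this direction, and it missed the threshold (log2 change -0.12, adjusted p = 0.123). Sdcbp, Dlg1 and Dlg3, which are scaffold proteins, had log2 changes of 0.05, 0.04 and -0.05. Of 22 extracellular organisers of synapses, 0 passed, also near the background of all genes. Their median was -0.04 and 7 of 22 changes were positive, against 46.4% positive over all genes above the floor. C1ql1, a secreted organiser, had a log2 change of -0.12 (adjusted p = 0.188, or 0.0490 without exposed animal 5), Sparcl1, a matrix protein of astrocytes, -0.05 (adjusted p = 0.226, and 0.0392 and 0.0427 in fits with no mean-variance trend and with robust eBayes), Nlgn2, an adhesion protein of inhibitory synapses, 0.16 (adjusted p = 0.293) and Slitrk1, another adhesion protein, -0.14 (adjusted p = 0.386).

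Other pentraxins and the enzymes that act on the family gave no call. Apcs, a pentraxin made mainly by the liver, had a log2 change of -0.01 at an intensity of 74.1 in exposed animals and 74.2 in control animals, and Crp was at the floor on all 12 arrays. Among 6 surface proteases and inhibitors 0 passed, near the background of all genes. Adam17, the protease that cleaves the pentraxin receptor from the membrane, had 614 ± 49.6 in exposed animals and 560 ± 24.5 in control animals (log2 change 0.13, adjusted p = 0.295). Timp3, an inhibitor of Adam17, was at 0.18 on the same scale (adjusted p = 0.164), and passed without exposed animal 6 (adjusted p = 0.0277). A second Timp3 probe set of similar signal was at 0.12 (adjusted p = 0.277 in limma), and 2 dimmer ones were at -0.08 and 0.06. The log2 change was -0.14 for Adam10 and 0.10 for Mmp9.

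Relatives and reported receptors of neuritin did not pass either. Nrn1l, its closest relative, had 144 in both exposed and control animals (log2 change -0.01), the insulin receptor gene Insr 0.01 and Fgfr1 0.04 (adjusted p = 1, 1 and 0.893). Among 27 measured GPI-anchored proteins of the neuronal surface, 1 rose and 0 fell, near the background of 2.62% of all genes higher and 0.844% lower, and the median was 0.01. The one that rose was Rtn4rl2, a relative of the Nogo receptor, with an intensity of 489 ± 29.5 in exposed animals and 416 ± 21.4 in control animals (1.18-fold, adjusted p = 0.0216, 5 of 6 exposed animals above every control animal). This call was kept in 18 of 26 alternatives. It was lost without exposed animal 1 (adjusted p = 0.0567), exposed animal 2 (0.0504), control 5 (0.0520) or control 6 (0.0525), with the RNA quality covariate (0.0938), without exposed animals 3 and 5 and control 4 together (0.0953), and within animals 1 to 3 (0.212) and 4 to 6 (0.398) alone. Cntn3 (-0.15), Lynx1 (0.09) and Cntn1 (-0.21) came next by p and did not pass (adjusted p from 0.192 to 0.450).

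**Figure D4:**
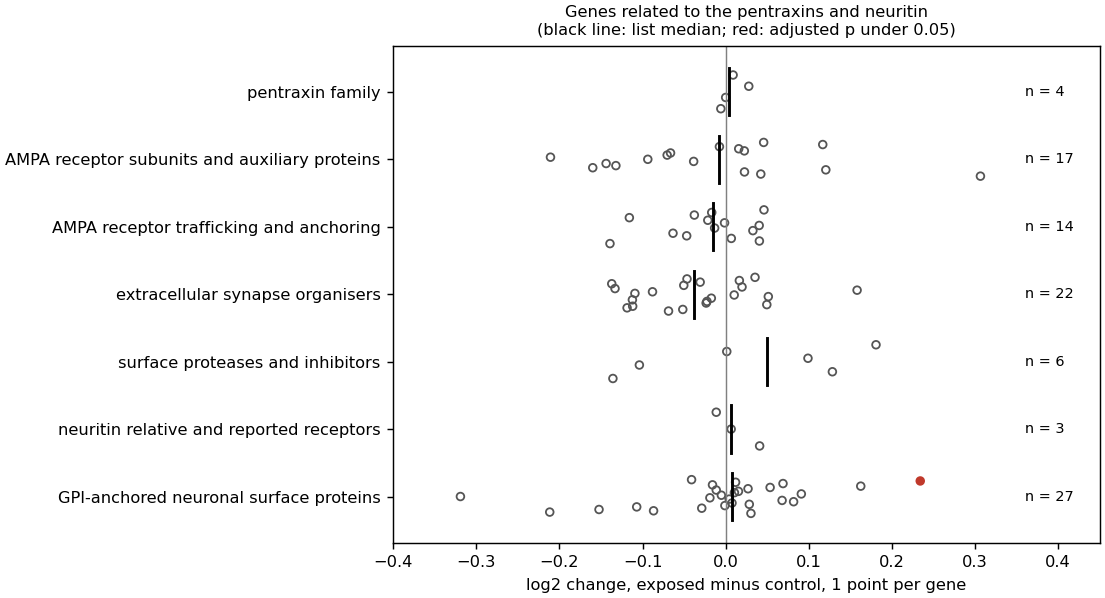
Log2 change (exposed minus control) of each measured gene in 7 lists related to the pentraxins and neuritin, 1 point per gene, with the list median as a black line. The medians lie between -0.04 and 0.05, and Rtn4rl2, among the GPI-anchored proteins, is the 1 gene that passed (red).

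Low values in exposed animal 5 were also counted over the related genes. Of 112 measured genes of the 9 related lists, 6 (Nptx1 among them) lay more than 0.5 below the median of the other 11 animals on the log2 scale (5.36%), beside 2.21% of the 15521 brighter probe sets of this array. The low value of Nptx1 was known before this count and is part of it. The first share is per gene at any brightness and the second per brighter probe set, so an excess cannot be read from them. Besides Nptx1 these were Gria1 (an intensity of 447, against 903 to 1097 in the other animals), Cnih2, an auxiliary protein of AMPA receptors (3749, against 3669 to 6768), Akap5, a postsynaptic anchor of kinases (188, against 221 to 416), C1ql3, a secreted synapse organiser (2065, against 2700 to 3419) and Lsamp, a GPI-anchored adhesion protein (1015, against 1989 to 2833). They were named after their values were seen. Cnih2 lay more than 0.5 below the median of the other animals in exposed animal 1 and control 6 too, and Akap5 in exposed animal 4. The count of brighter probe sets that far below the others was 343 in this animal and at most 150 in the other arrays.

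Among the marker genes of other cells and brain regions, 12 of 13 lists gave 0 calls in limma, and of 7 endothelial markers 1 fell, the transporter gene Slco1a4 (1.22-fold lower, adjusted p = 0.00364). Over all genes 2.62% were higher and 0.844% were lower. The summed intensity of 8 neuron markers ran from 54548 to 59046 in exposed animals, the highest in animal 5, and from 55329 to 57428 in control animals. That of 5 markers of excitatory neurons ran from 13357 to 16775 in exposed animals, with 14912 in animal 5, and from 14377 to 16414 in control animals. That of 6 markers of parvalbumin interneurons ran from 14743 to 15591 in exposed animals and from 14673 to 15829 in control animals. That of 7 endothelial markers ran from 6488 to 7191 in exposed animals and from 7000 to 7514 in control animals, and only exposed animal 3 lay within the control range. That of 6 hypothalamus markers ran from 4341 to 4685 in exposed animals and from 4109 to 5342 in control animals, of which all but control 1 lay above every exposed animal. The part of these shifts in the results was not tested. That of 6 markers of olfactory bulb and neuroblasts ran from 1381 to 1554 in exposed animals and from 1390 to 3303 in control animals, the highest in control 4. Without control 4 the Nrn1 log2 change was -0.0061 and gave no call. The part of regional sampling in the low values of exposed animal 5 was not tested.

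**Figure D5:**
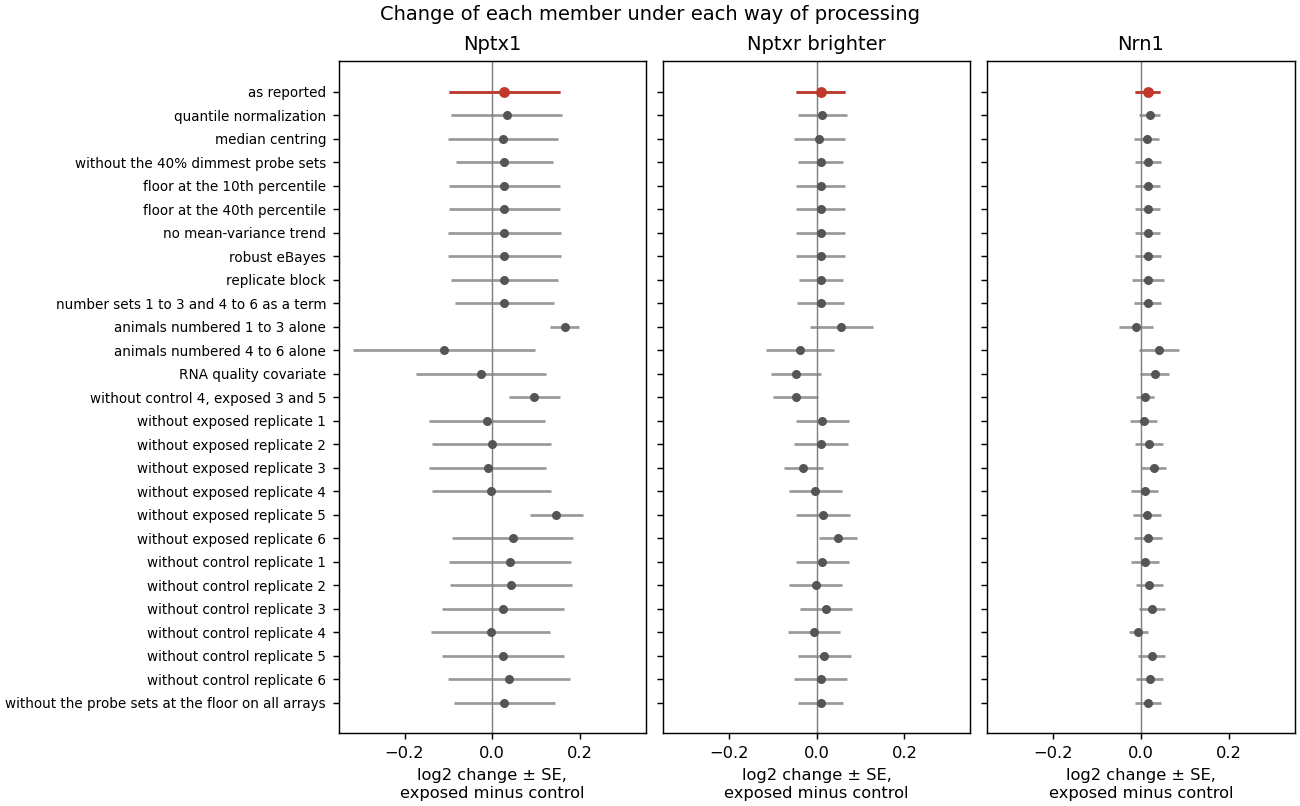
Log2 change ± SE (exposed minus control) of Nptx1, the brighter Nptxr probe set and Nrn1 as reported (red, top) and under each alternative processing or set of animals (grey). Nptx1 ranges from -0.11 to 0.16, Nptxr from -0.05 to 0.06 and Nrn1 from -0.01 to 0.04, and no alternative gave a call.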

How the data were processed

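Forebrain RNA of 12 rats was measured on 1 array each, from Trizol-extracted, column-cleaned RNA labelled as biotin cRNA by Affymetrix procedures, per the labels' protocols. The deposited values are probe set intensities on a linear scale (12.6 to 34828); the authors' summary and normalization steps are not given in the sources used here. Array medians lay within 0.06 on the log2 scale, so intensities were not normalized again. Values were raised to the 20th percentile (53.8) and log2-transformed, and 31042 probe sets (57 array controls left out) were fitted with limma 3.58.1 in R 4.3.3 (lmFit, eBayes with trend) with group as the only term, and adjusted by Benjamini-Hochberg over all of them. The fit was tested on simulated data. Single values used exact two-sided permutation tests over 924 assignments. Gene names came from the platform annotation (20826 probe sets with 1 symbol, 436 with several, 9780 with none; 68 gene IDs had no match in RefSeq). Results per gene use the brightest probe set. The text names the members, for each related list the genes that passed or those with the 4 smallest p, and for each member the 3 genes most like it, and says where others are named. The members, lists and tests were chosen with earlier results of these data known. Alternatives were 2 scalings, 2 floors, a filter on dim probe sets, 2 forms of eBayes, the replicate number as a block, number sets, RNA quality, and leaving out animals. No sequences are shown, since the tables used here hold none for the measured members.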

Additional observations from a re-analysis of the deposited data

Results flagged for a closer look

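The log2 ratio of Nptx1 over Nptxr in exposed animal 5 was -0.21, and the next lowest exposed animal was at 0.35. This gap was 0.711 of the range of the 6 exposed animals, above Dixon's 95% critical value for 6 samples. The log2 intensity of Nptx1 itself in that animal was 12.27, and the next lowest exposed animal was at 12.77, a gap of 0.632 of the range, just above the same value. On the linear scale the gap of Nptx1 was 0.567 of the range and did not exceed it. Among control animals the lowest Nptx1 value, in control 4, lay apart by 0.623 of the range on the log2 scale. On the linear scale this control gap was 0.604, larger than in exposed animals, and neither control gap exceeded the critical value. Chance alone gives a gap above that value in about 1 in 20 groups. In all, 14 groups of values were examined, and the 2 flagged here share the same Nptx1 value of exposed animal 5.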

How the results depend on the processing

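None of the 26 alternatives gave a call for a measured member. The smallest adjusted p in limma was 0.205 for Nptx1, 0.769 for the brighter Nptxr probe set and 0.818 for Nrn1. Since the log2 changes lay near 0, their sign turned in some settings. Within animals numbered 1 to 3 Nrn1 was -0.011. Within those numbered 4 to 6 Nptx1 was -0.11 and Nptxr -0.039. With the RNA quality covariate Nptx1 was -0.026, Nptxr -0.047 and its dimmer probe set, at the floor, -0.0015. Without control 4 and exposed animals 3 and 5 Nptxr was -0.048. With 1 animal left out in turn, the log2 change ran from -0.012 to 0.15 for Nptx1, from -0.031 to 0.049 for Nptxr and from -0.0061 to 0.029 for Nrn1. The differences between members ran from -0.13 to 0.039 for Nrn1 over Nptx1, from -0.033 to 0.060 for Nrn1 over Nptxr and from -0.025 to 0.13 for Nptx1 over Nptxr, and that of Nrn1 over Sst from -0.015 to 0.024. The cause was not tested.

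Over all probe sets 610 were higher and 186 lower. The counts were 359 and 76 with the replicate number as a block, 66 and 9 within animals numbered 1 to 3, and 31 and 2 within those numbered 4 to 6, where fewer animals were used. The lower count was 72 with the RNA quality covariate and 82 without control 4 and exposed animals 3 and 5. With 1 animal left out the counts ran from 451 to 622 higher and from 103 to 182 lower, with 104 lower without exposed animal 1, 103 without control 3, 112 without control 5 and 117 without control 6. Deviations of same-numbered animals correlated over 0.1 in 2 of 6 pairs, and 1 of 6 correlated best with its own number, so the numbers were not taken as pairs. The block left the log2 changes of the members unchanged, at 0.03 for Nptx1, 0.01 for Nptxr and 0.02 for Nrn1, with adjusted p = 1 for each, and in that fit the calls of Vgf (adjusted p = 0.0506) and Adcyap1 (0.0519) were lost.

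Within animals numbered 4 to 6 alone, with 3 animals per group, the calls of Inhba (adjusted p = 0.0620), Bdnf (0.275), Scg2 (0.159), Fos (0.0696), Nr4a1 (0.0753) and Srf (0.222) were lost, and within those numbered 1 to 3 those of Scg2 (0.0980) and Srf (0.180). Crp, at the floor on every array in the fit reported above, had a log2 change of 0.041 with the floor at the 10th percentile. Among related genes, the sign turned for Nrn1l with the floor at the 40th percentile (0.029). Within animals numbered 1 to 3 it turned for Apcs (0.084), Nrn1l (0.064) and Gria2 (0.0049), within those numbered 4 to 6 for Insr (-0.025), Mmp9 (-0.0093), Gria3 (0.073) and Fgfr1 (-6.3e-05), and with the RNA quality covariate for Fgfr1 (-0.00042). With 1 animal left out, Apcs ran from -0.061 to 0.032, Nrn1l from -0.057 to 0.023 and Insr from -0.038 to 0.047. Averaging a gene's probe sets moved the median of the transcription factor list from 0.23 to 0.14. The alternative without probe sets at the floor and the SD ratios with 1 animal left out were chosen after seeing the data. The number of animals and the spread of Nptx1 limit what could be seen, and 1 probe set each leaves Nptx1 and Nrn1 without a second measurement.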
